A study of Mus musculus with 4 samples.

Results

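The genes of melanocytes and pigment production were examined in mouse middle ears after inhalation of diesel exhaust particles (DEPs). They were 10 genes (Tyr, Tyrp1, Dct, Pmel, Mlana, Mitf, Sox10, Oca2, Slc45a2 and Gpr143), chosen by name, and every non-control probe whose RefSeq accession belongs to one of them was taken. This gave 13 probes on 22 spots per array, of 39429 probes that stand for 20971 named genes or 32360 genes and unnamed transcripts. The arrays compared the middle ears of DEP-treated mice, labelled DEP_ear and carried in the red dye Cy5, with untreated ears, labelled CON_ear and carried in the green dye Cy3, and the dyes were not swapped. The study used 9 male BALB/c mice aged 6 to 10 weeks, of which the treated ones breathed in DEPs from day 1 to day 5, 1 h daily, with sampling on day 14. The labels give 4 replicates, each 1 two-colour array, and the number of mice behind an extract is not given in the sources used here.

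Melanocytes arise from the neural crest and make melanin in melanosomes, organelles related to lysosomes. The transcription factor MITF, whose gene is activated by SOX10, binds short E-box motifs in front of the genes for the pigment enzymes TYR, TYRP1 and DCT. In the ear, melanocytes lie in the mucosa of the middle ear, in the vestibule and, as the intermediate cells, in the stria vascularis of the cochlea, where they help to generate the endocochlear potential. BALB/c is an albino strain whose tyrosinase is not functional, so its melanocytes are present but do not make melanin.

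Signals are given as the authors' processed intensities, in arbitrary units, and ratios as log2 of the DEP-labelled over the control-labelled channel. The source names of the channels were followed for this direction, although the labels list both treatments under the Cy5 channel. The direction is opposite to the one the study gives. Of the genes that it names as raised, 24 of the 25 tested were lower in the DEP-labelled channel, and of those it names as lowered 9 of 11 were higher. The qRT-PCR of the study, which does not use the array dyes, also had CHRM1 and EPO raised and ESR1, SOS1, CD4 and IFNA1 lowered. Every sign below can therefore also be read turned. Since the dyes were not swapped, exposure and a probe's preference for 1 of the dyes cannot be told apart.

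In these ears 8 of the 10 genes gave a signal clear of background in each of the 8 channels (both dyes of 4 arrays), and Oca2 and Gpr143 did not. With the deposited ratios none of the 10 differed between the channels at an adjusted p under 0.05 in limma. The brighter probe of Mitf was higher in the DEP-labelled channel on each of the 4 arrays, by a mean log2 ratio of 0.53 ± 0.12 (SD, n = 4), and its second probe on 3 of 4, by 0.27 ± 0.26 (SD, n = 4). Dct, Sox10, Slc45a2 and Mlana were higher in that channel on array 2 and lower on arrays 1, 3 and 4. Tyrp1 had the widest spread of the 8, from a log2 ratio of -0.38 to 1.95.

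The promoter sequences of the enzyme genes and of Mitf are shown because they hold the motifs that tie these genes into 1 regulatory circuit in textbooks. They are the 250 bases before the transcription start, 5′ to 3′ on the gene's strand, from RefSeq on assembly GRCm38.p6, and 5 of the 10 genes (Tyr, Tyrp1, Dct, Mitf and Oca2) had an entry in the table used. Capitals mark TCATGTG, the core of the M-box, on either strand in Tyr, Tyrp1 and Dct, and TGACGTCA, the cAMP response element, in Mitf.
Tyr promoter, chr7:87493513-87493762, minus strand: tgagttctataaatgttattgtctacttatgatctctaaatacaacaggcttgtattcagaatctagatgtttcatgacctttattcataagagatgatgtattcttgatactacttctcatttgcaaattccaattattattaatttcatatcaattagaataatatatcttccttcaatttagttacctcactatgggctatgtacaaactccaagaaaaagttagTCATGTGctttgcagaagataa
Tyrp1 promoter, chr4:80833963-80834212, plus strand: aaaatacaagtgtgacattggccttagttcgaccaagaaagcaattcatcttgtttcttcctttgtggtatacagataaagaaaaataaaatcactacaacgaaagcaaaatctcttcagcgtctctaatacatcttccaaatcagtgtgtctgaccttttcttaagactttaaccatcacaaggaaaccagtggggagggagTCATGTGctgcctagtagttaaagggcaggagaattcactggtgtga
Dct promoter, chr14:118052247-118052496, minus strand: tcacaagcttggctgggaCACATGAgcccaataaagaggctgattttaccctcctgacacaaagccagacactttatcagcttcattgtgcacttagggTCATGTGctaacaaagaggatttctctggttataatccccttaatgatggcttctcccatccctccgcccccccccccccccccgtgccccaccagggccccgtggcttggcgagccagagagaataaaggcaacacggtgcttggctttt
Mitf promoter, window 3, chr6:97991533-97991782, plus strand: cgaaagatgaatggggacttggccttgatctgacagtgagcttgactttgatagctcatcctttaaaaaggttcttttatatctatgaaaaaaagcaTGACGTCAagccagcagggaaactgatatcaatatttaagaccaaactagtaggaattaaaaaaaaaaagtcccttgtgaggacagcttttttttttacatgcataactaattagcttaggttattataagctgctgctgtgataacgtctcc

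All 3 pigment enzyme genes held the M-box core. Counted from the transcription start, TCATGTG lay at -22 to -16 in Tyr, at -47 to -41 in Tyrp1 and at -151 to -145 in Dct, and Dct held it again on the opposite strand at -232 to -226. The shorter E-box core CATGTG is contained in each of these matches, and its remaining match was on the opposite strand of the Oca2 window at -186 to -181. Of the 3 Mitf windows, 1 for each listed start, window 3 held TGACGTCA at -153 to -146, and none held CATGTG. Among all 32851 windows of 300 bases in the table (250 before the start and 50 after it), 14.2% held CATGTG, 3.77% held TCATGTG and 1.79% held TGACGTCA on either strand. A match describes the letters only, and binding was not measured here.

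**Figure D1:**
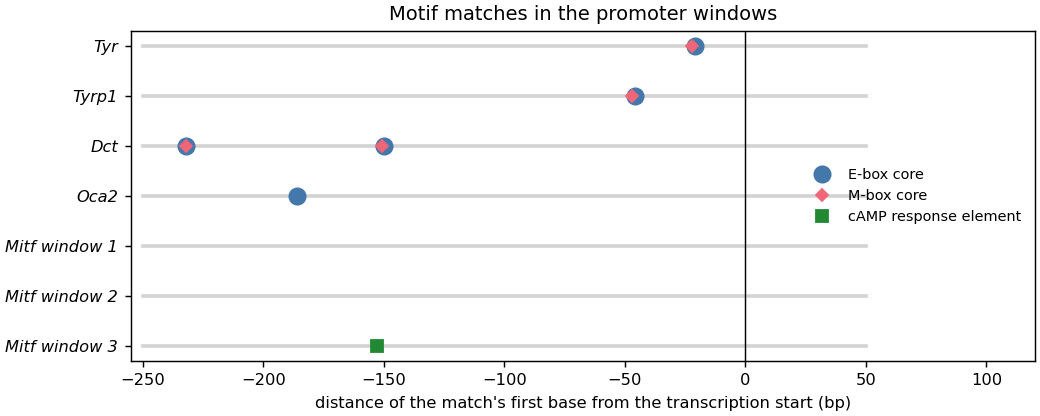
Matches to the E-box core CATGTG (circles), the M-box core TCATGTG (diamonds) and the cAMP response element TGACGTCA (square) in the RefSeq promoter windows of 5 pigment genes. The horizontal axis is the distance in bp of the first matched base from the transcription start, each grey line is 1 window of 300 bases, and the matches of Tyr and Tyrp1 lie within 50 bp of the start.

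Mitf, the master transcription factor of melanocytes, which is also made in osteoclasts, mast cells and the retinal pigment epithelium, had 2 probes. On arrays 1 to 4 its brighter probe had a Cy5 signal of 2267, 1848, 1719 and 1598, and a Cy3 signal of 1782, 1195, 1159 and 1076. The log2 ratios were 0.35, 0.63, 0.57 and 0.57. All 4 arrays showed the higher signal in the DEP-labelled channel, and array 1 had the smallest difference. The mean of 0.53 (SE 0.11, 95% interval 0.25 to 0.81) had an unadjusted p of 0.00464 and an adjusted p of 0.144 in limma, and the exact two-sided sign-flip permutation test gave 0.125, the smallest p that 4 ratios allow.

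The second Mitf probe differed from the first. Its Cy5 signals were 1017, 721, 732 and 736 and its Cy3 signals 854, 469, 736 and 633, with log2 ratios of 0.25, 0.62, -0.01 and 0.22. On array 3 the channels were thus level for this probe, whereas the brighter probe stood at 0.57 there. Its mean log2 ratio of 0.27 (SD 0.26) had an adjusted p of 0.358 in limma. The difference between the probes was not tested.

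Sox10, the neural crest factor that activates Mitf and is shared by melanocytes and Schwann cells, had Cy5 signals of 1141, 1763, 1446 and 1372 and Cy3 signals of 1575, 1176, 1650.0 and 1520.0. The ratios on the log2 scale were -0.46, 0.58, -0.19 and -0.15. Only array 2 was higher in the DEP-labelled channel, so the ratios lay on both sides of 0. The mean was -0.05 ± 0.45 (SD, n = 4; 95% interval -0.57 to 0.46), with an adjusted p of 0.896 in limma.

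**Figure D2:**
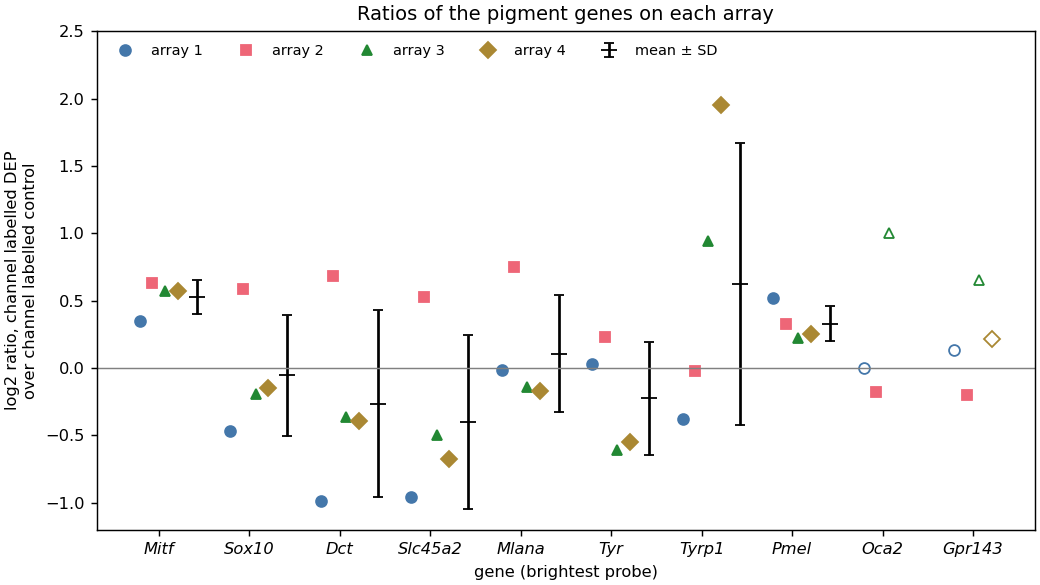
Log2 ratio of the DEP-labelled over the control-labelled channel for the brightest probe of each of the 10 pigment genes on arrays 1 to 4 (points), with the mean and SD over the arrays for the 8 genes measured throughout (black bars). Open points are arrays on which 1 or both channels were not well above background; Mitf and Pmel lie above 0 on all 4 arrays, and the array 2 points of Sox10, Dct, Slc45a2 and Mlana lie apart above 0.

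Of the 3 related enzymes, DCT (dopachrome tautomerase) acts within melanin synthesis and is the first of them to be made in melanoblasts. Dct had Cy5 signals of 3604, 6822, 5345 and 5987 and Cy3 signals of 7144, 4238, 6875 and 7861. Its log2 ratios were -0.99, 0.69, -0.36 and -0.39. The control-labelled channel was the brighter one on arrays 1, 3 and 4 and the dimmer one on array 2. The mean of -0.26 ± 0.70 (SD, n = 4; 95% interval -1.0 to 0.47) had an adjusted p of 0.636 in limma. The second Dct probe gave -0.90, 0.74, -0.33 and -0.37, so both probes of the gene placed the arrays in the same order.

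Tyrosinase, encoded by Tyr, catalyses the first and rate-limiting steps of melanin synthesis. The probe above background had Cy5 signals of 153, 130, 92.1 and 107 and Cy3 signals of 150.0, 110, 141 and 157. Its ratios of 0.03, 0.23, -0.61 and -0.55 on the log2 scale fell into a pair near or above 0 (arrays 1 and 2) and a pair below it (arrays 3 and 4). The mean was -0.22 ± 0.42 (SD, n = 4; 95% interval -0.71 to 0.26), with an adjusted p of 0.550 in limma. The other Tyr probe was printed in 10 spots per array, and of its 40 spots over the arrays 0 were well above background in either channel and 15 had a ratio. Its measured means were 5.41 in Cy5 and 7.98 in Cy3, so no fold is given for it.

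TYRP1 is a melanosomal enzyme that also stabilises tyrosinase. On arrays 1 to 4 the Tyrp1 signal was 68.0, 98.5, 135 and 200 in Cy5 and 88.3, 100.1, 69.9 and 51.7 in Cy3. The log2 ratios were -0.38, -0.02, 0.94 and 1.95. Arrays 3 and 4 were higher in the DEP-labelled channel and arrays 1 and 2 were not, a sign pattern found in 6.74% of the 24273 genes with 4 ratios. The mean of 0.62 ± 1.05 (SD, n = 4; 95% interval -0.45 to 1.70) had an adjusted p of 0.456 in limma. The SD was larger in 6.35% of the 18358 genes that were above background in every channel, whose median SD was 0.28. The mean log2 ratio of Tyrp1 was 0.18 without array 4 and 0.96 without array 1, and with normexp it was 0.34 after loess and 0.35 after median centring.

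**Figure D3:**
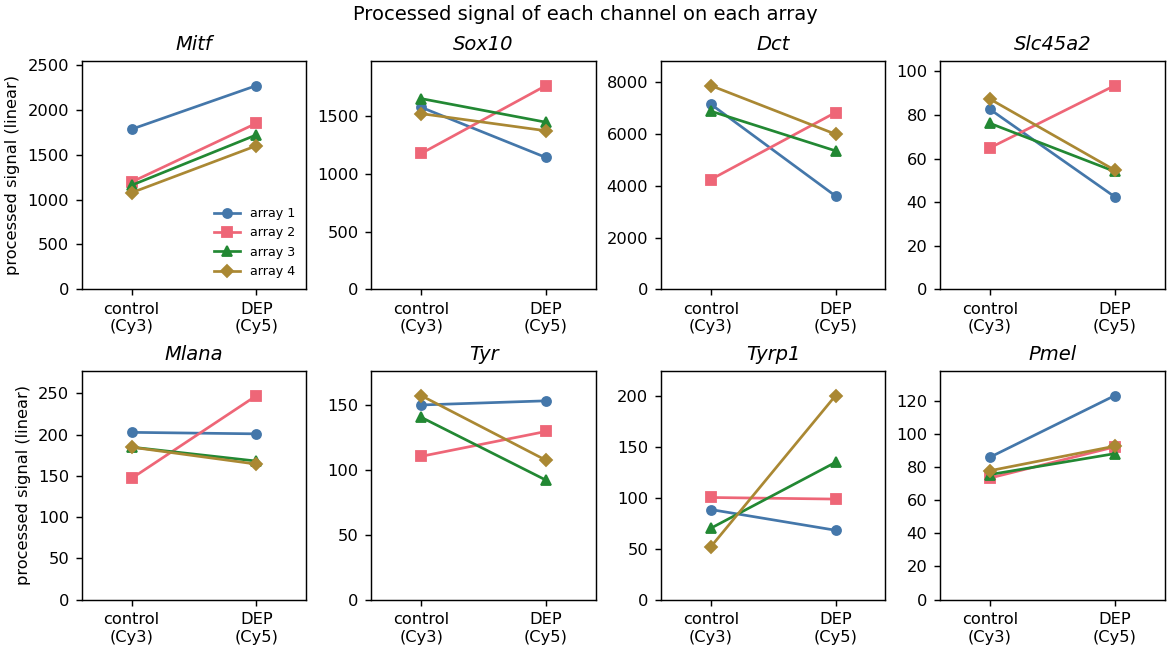
Processed signal (linear axis from 0, arbitrary units) of 8 pigment genes in the control-labelled channel (Cy3) and the DEP-labelled channel (Cy5), with a line joining both channels of an array. The lines of Mitf and Pmel rise on all 4 arrays, those of Dct, Sox10 and Slc45a2 rise on array 2 and fall on the others, and Tyrp1 rises on arrays 3 and 4.

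PMEL builds the fibrils on which melanin is laid down, and MLANA assists its maturation. Pmel had Cy5 signals of 123, 92.2, 88.2 and 92.7 and Cy3 signals of 86.0, 73.4, 75.5 and 77.8. Its log2 ratios of 0.52, 0.33, 0.22 and 0.25 were all above 0. The mean of 0.33 ± 0.13 (SD, n = 4; 95% interval 0.05 to 0.61) had an unadjusted p of 0.0301 and an adjusted p of 0.232 in limma, with an exact sign-flip permutation p of 0.125. With normexp background correction the mean log2 ratio of Pmel was 0.13 after loess and 0.09 after median centring, and leaving out any 1 array raised the unadjusted p in limma to between 0.0691 and 0.0955.

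Mlana had Cy5 signals of 200.8, 247, 168 and 164 and Cy3 signals of 203, 147, 185 and 185. Its log2 ratios were -0.01, 0.75, -0.14 and -0.17. Array 2 alone stood above 0, and the other arrays lay close together. The mean was 0.11 ± 0.43 (SD, n = 4; 95% interval -0.39 to 0.61), with an adjusted p of 0.782 in limma. Without array 2 the mean was -0.11.

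The melanosome membrane carries the transporters SLC45A2 and OCA2, which raise the pH of the organelle and whose loss causes oculocutaneous albinism, and the receptor GPR143, which controls melanosome size. Slc45a2 had Cy5 signals of 42.5, 93.5, 54.1 and 54.7 and Cy3 signals of 82.6, 64.9, 76.2 and 87.3. The log2 ratios were -0.96, 0.53, -0.49 and -0.67, again with array 2 alone above 0. The mean of -0.40 ± 0.65 (SD, n = 4; 95% interval -1.09 to 0.29) had an adjusted p of 0.458 in limma.

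For Oca2 the Cy5 signal was clear of background on 2 arrays and the Cy3 signal on 1 array. Its signals were 28.0, 40.4, 22.7 and 5.36 in Cy5 and 27.9, 45.7, 11.3 and 6.94 in Cy3. Array 2 had the highest value in both channels. Gpr143 was well above background only on array 2, at 60.7 in Cy5 and 69.9 in Cy3. On the other arrays its signal lay between 7.30 and 11.5 in either channel. The high values of Oca2 and Gpr143 were thus shared by both channels of 1 array and did not separate the groups, and no fold is given for these 2 genes.

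Read as a set, 0 of the 10 genes passed an adjusted p of 0.05 in limma, against 0% of the 25679 genes tested, where the smallest adjusted p was 0.0922. With normexp and median centring 2988 genes passed, Mitf among them at an adjusted p of 0.0335 in limma. At an unadjusted p under 0.05 limma called 4791 genes, 2572 higher in the DEP-labelled channel and 2219 lower, and with normexp and median centring 7256 higher and 2271 lower. By that measure 2 pigment genes (Mitf and Pmel) were higher in the DEP-labelled channel, where 10% of all genes were, and 0 were lower, where 8.64% of all genes were. When the probes of a gene were averaged Tyr came to a mean log2 ratio of -0.58 with an unadjusted p of 0.0272 and an adjusted p of 0.228 in limma, a mean that takes in its probe below background. Above 0 on all 4 arrays were 2 of the 9 pigment genes with 4 ratios, against 17.2% of all genes, and below 0 on all 4 arrays were 0 of the 9, against 11.5%. None of the 8 genes measured throughout had a mean ratio past 2-fold. The median over the 10 genes, with Oca2 and Gpr143 at their measured ratios, was 0.15 and over the 8 measured throughout 0.03, and over all genes tested it was 0.03.

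Levels were also compared without pairing the channels of an array, after the mean log2 signals of the arrays had been brought to a common distribution. On this scale all 4 extracts labelled DEP lay above all 4 labelled control for Mitf (1664 to 1996 against 1191 to 1345) and for Pmel (93.5 to 106 against 66 to 89.3), a separation found in 7.46% of the 18358 genes measured throughout. The other 6 pigment genes overlapped between the groups. The spread within a group was wide for Dct, which ranged from 4219 to 9082, or 2.15-fold, among the control extracts alone and from 2650.0 to 6917 among those labelled DEP. For Tyrp1 the range was 1.70-fold among control extracts and 4.40-fold among those labelled DEP.

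The 4 genes with array 2 above 0 and the others below it (Dct, Sox10, Slc45a2 and Mlana) made up 4 of the 9 pigment genes with 4 ratios. Of all 24273 such genes 4.89% had this pattern. The pattern was read from the pigment genes after their values were seen, so these shares do not test it. Mlana had it with a ratio of only -0.01 on array 1. Over the 8 measured pigment genes, the median log2 ratio was -0.20, 0.56, -0.16 and -0.16 on arrays 1 to 4, while over all genes measured throughout it was -0.01, 0.08, 0.01 and 0.03. Across the 8 channels the scaled log2 levels of Dct and Sox10 correlated with a Pearson r of 0.952. Dct and Slc45a2 gave 0.884, and Mlana and Sox10 gave 0.861. These coefficients describe 8 channels that share 4 arrays, and no p is attached to them.

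The brighter probe of Mitf was, like Dct, Sox10 and Slc45a2, lowest on array 1 and highest on array 2, but all its ratios lay above 0, and its second probe was highest on array 2 and lowest on array 3. With the 8 channels taken singly, whose levels also carry the difference between the groups, the r of the brighter Mitf probe was -0.025 with Dct, 0.153 with Sox10 and -0.255 with Slc45a2. The highest r of Mitf with another pigment gene was 0.787, with Pmel. Tyrp1, which like Dct carries the M-box core shown above, had an r of 0.299 with Dct and of 0.581 with Mitf.

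Genes of other cells moved over the arrays too. The medians of the middle ear epithelium list had the same array signs as those of the pigment genes. So did those of the stria vascularis list, although its sign on array 3 rests on Kcnj10, a gene of the intermediate cells. Of 10 measured genes of middle ear and airway-type epithelium, 9 were above 0 on array 2 and 2, 2 and 1 on arrays 1, 3 and 4, with medians of -0.25, 0.47, -0.31 and -0.39. Its summed level ranged from 176500 to 420800 in the DEP-labelled channels and from 313700 to 643600 in those labelled control, and its brightest gene was Bpifb1, a secreted mucosal protein, at -1.59, 0.52, -1.21 and -0.44. The 7 measured genes of the stria vascularis list had medians of -0.73, 0.23, -0.03 and -0.31, with 1, 4, 3 and 2 of them above 0 on arrays 1 to 4. They were genes of marginal and basal cells and Kcnj10, the potassium channel of the intermediate cells. Kcnj10 was below 0 on all 4 arrays, at -2.54, -1.19, -0.33 and -0.26, and without it the array 3 median would lie above 0. Atp1b2 and Cldn11 were also below 0 on array 2, at -1.085 and -0.10. The brightest gene of the list was Slc12a2, the potassium and chloride cotransporter of the marginal cells, at -0.66, 0.23, -0.48 and -0.31. The part of these cells in the values of the pigment genes was not tested. In whole extracts a difference in the number of melanocytes and one in RNA per melanocyte could not be told apart.

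**Figure D4:**
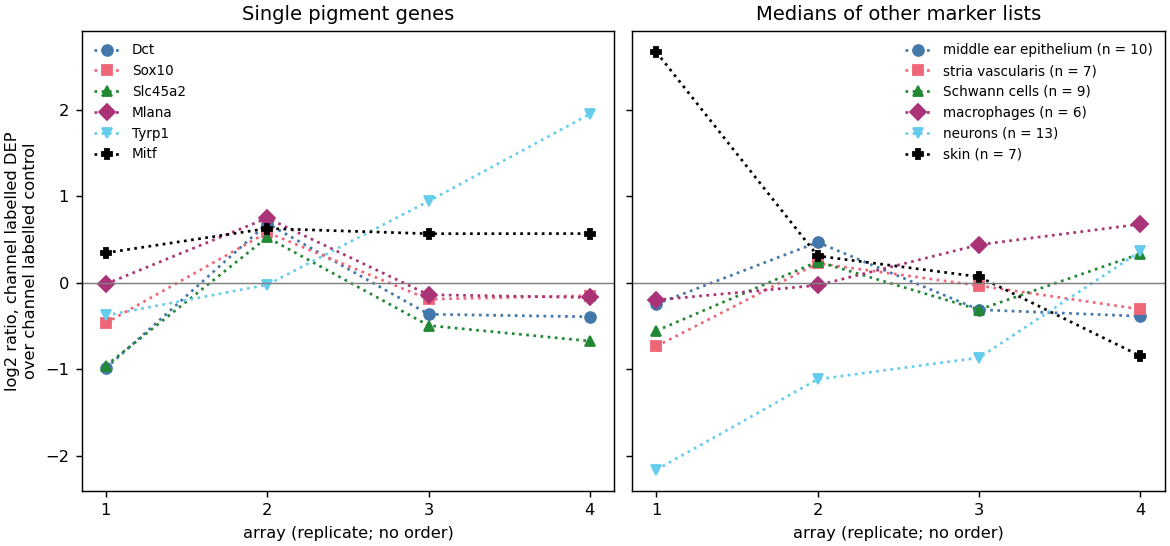
Left, log2 ratio of 6 pigment genes on arrays 1 to 4; right, the median log2 ratio of the measured genes of 6 other marker lists on the same arrays. Dotted lines only join the points of a gene or list, since replicates have no order. Dct, Sox10, Slc45a2 and Mlana and the list of middle ear epithelium are above 0 on array 2 and below 0 on the other 3. The stria vascularis list, which holds the intermediate cell gene Kcnj10, has these signs too, but lies at only -0.03 on array 3. Tyrp1 and the macrophage list are highest on array 4.

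Other sources of these transcripts were looked at in the same way. Sox10 is also made by Schwann cells, whose 9 measured markers had medians of -0.56, 0.25, -0.31 and 0.34. That list and Sox10 had the same signs on arrays 1 to 3 and opposite signs on array 4. Cdh19 of the list, at -1.02, 0.54, -0.60 and -0.07, had the signs of Sox10 on every array, and the others measured did not. The part of Schwann cells in the Sox10 signal was not tested. The brightest gene of the list was Pmp22, a protein of peripheral myelin, with a mean log2 ratio of -0.12. The 6 oligodendrocyte genes had medians of -1.30, -0.37, -0.29 and 0.21 and the 13 neuronal genes -2.16, -1.12, -0.87 and 0.36. In these 2 lists array 2 was below 0. Their brightest genes were Cnp and Thy1, at mean log2 ratios of -0.33 and -0.60.

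For Mitf the lists of osteoclasts and mast cells bear on the source. The 9 measured osteoclast genes had medians of 0.02, 0.11, -0.23 and 0.61, and the brightest, Acp5, the tartrate-resistant acid phosphatase, a mean of 0.11. The 6 measured mast cell genes had medians of 0.29, 0.18, 0.18 and 0.92, with 4, 5, 5 and 6 of them above 0, and the brightest, Hdc, which makes histamine, a mean of 0.00. These medians were above 0 on all 4 arrays as Mitf was, and so were 17.2% of all genes with 4 ratios. They were highest on array 4, and the brighter Mitf probe was highest on array 2. The summed level of the list ranged from 5170.0 to 7072 in the DEP-labelled channels and from 4612 to 6100.0 in those labelled control. The part of these cells in the Mitf ratio was not tested.

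Skin and retinal pigment epithelium also hold pigment genes. The 7 measured genes of skin and hair follicle had medians of 2.67, 0.31, 0.07 and -0.85, with 6, 7, 5 and 1 of them above 0. On array 1, where this median was highest, Dct, Sox10, Slc45a2, Tyrp1 and the brighter Mitf probe had their lowest ratios. Pmel had its highest ratio there, at 0.52. The part of skin in these values was not tested. The brightest skin gene was Lor, loricrin of the cornified layer, at 3.04 on array 1. Of the 7 retinal pigment epithelium genes, 4 (Rpe65, Lrat, Best1 and Rgr) were above background on no array, and Rpe65, its defining visual cycle enzyme, had mean signals of 9.48 in Cy5 and 15.7 in Cy3. The 3 measured genes of that list had medians of -2.88, -2.57, 0.14 and 0.17, and the brightest was Ttr, which the choroid plexus also makes, with ratios of -4.37, -4.25, 0.49 and 1.04.

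The medians of the macrophage list had the signs of Tyrp1, as did those of the retinal pigment epithelium list, and stood at -0.20, -0.03, 0.44 and 0.68 on arrays 1 to 4. Of its 6 measured genes 3 (Mrc1, C1qa and C1qb) had these signs on every array. Its summed level was 17860 to 27120 in the DEP-labelled channels and 17430 to 21080 in those labelled control, and its brightest gene, Csf1r, the receptor for colony stimulating factor 1, had a mean of 0.20. Among 18357 genes, the nearest to Tyrp1 over the 8 channels were Mrc1, the macrophage mannose receptor, with an r of 0.984, C1qc, a chain of complement C1q, with 0.979, and the unnamed transcript AK133873 with 0.974. The scaled level of Mrc1 ran from 1359 to 2590.0, a 1.91-fold range, and that of Tyrp1 from 52.2 to 229.7, a 4.40-fold range. The part of macrophages in the Tyrp1 signal was not tested.

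The nearest genes to Slc45a2 over the 8 channels were Cited1 (0.980), a coactivator known in melanocytes, Wnt5a (0.959) and Gjb2 (0.957), the connexin of cochlear supporting cells. Those nearest to Dct were Dnase1 (0.980), the unnamed transcript ENSMUST00000100051 (0.978) and AI662270 (0.972). Sox10 was nearest to Aif1l (0.983), Tspan12 (0.983) and T2 (0.974), and Mlana to Ndc1 (0.947), Lrrc71 (0.938) and Bpifa1 (0.932). Bpifa1 is an abundant secreted protein of middle ear epithelium. No r is given a test, since 3 genes out of 18357 were picked for each pigment gene.

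The genes nearest to the remaining pigment genes were of other kinds. For Mitf they were Slc15a4 (0.976), a lysosomal transporter, Rbm26 (0.975) and Tent4b (0.974). Tyr was nearest to Kdm7a (0.980), Micall2 (0.978) and Atad2 (0.971), and Pmel to Phf13 (0.970) and 2 probes without a gene name, NAP113833-1 (0.980) and ENSMUST00000061786 (0.972).

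**Figure D5:**
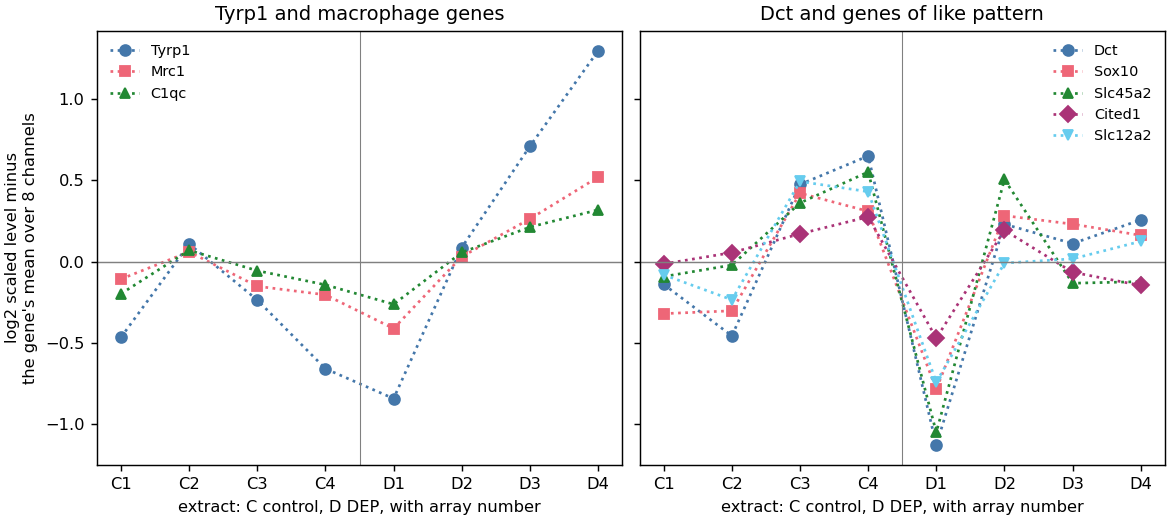
Scaled log2 level minus the gene's mean over the 8 channels (vertical axis) in the 4 extracts labelled control (C1 to C4) and the 4 labelled DEP (D1 to D4). Left, Tyrp1 with Mrc1 and C1qc, the macrophage genes nearest to it, all lowest in D1 and highest in D4; right, Dct, Sox10 and Slc45a2 with Cited1 and the strial gene Slc12a2, all lowest in D1.

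Other genes of the pigment pathway were listed by role: signals and receptors, transcription factors, melanosome pumps and channels, melanosome building and sorting, and melanosome transport. Of 45 such genes 43 were tested, 36 of them above background in every channel, and 0 passed the adjusted threshold. At an unadjusted p under 0.05 in limma 4 of the 43 were higher in the DEP-labelled channel and 2 lower, where 10% and 8.64% of all genes were, and their median log2 ratio was 0.08 against 0.03 over all genes tested. In all, 24 had a mean ratio above 0 and 19 below it.

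Among the 5 tested genes of signals and receptors 1 had an unadjusted p under 0.05, among the 8 transcription factors 1, and among the 7 pumps and channels 3, where 18.7% of all genes had one in either direction. Kitl, the ligand of the KIT receptor that melanocytes need to survive, had log2 ratios of -0.55, -0.23, -0.63 and -0.33 (mean -0.44, adjusted p 0.191 in limma). All 4 arrays thus had less of it in the DEP-labelled channel. Its receptor Kit was measured at -1.14, -1.10, -0.20 and 0.25, with the sign turned on array 4. Mc1r, the melanocortin receptor, was above background on no array.

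The transcription factor Snai2, which acts in neural crest migration, stood at 1.30, 0.68, 0.36 and 0.50 (mean 0.71, adjusted p 0.181 in limma). Of the channels, Trpm1, known in melanocytes and retinal bipolar cells, stood at -0.07, -0.27, -1.54 and -1.29 (mean -0.79, adjusted p 0.262). Mcoln3, an endolysosomal cation channel of strial melanocytes and hair cells, stood at 0.49, 0.70, 0.53 and 0.29 (mean 0.50, adjusted p 0.162), with its Cy3 signal above background on 3 arrays. Each of these genes kept 1 sign on all 4 arrays.

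Tpcn2, a cation channel of the melanosome, had a Cy5 signal above background on 2 arrays and a Cy3 signal on 0, so it has no fold, although its ratios were all above 0. Among the 19 genes of melanosome building and sorting, the 1 with an unadjusted p under 0.05 was Hps3, a subunit of a lysosome-related organelle complex, at 0.08, 0.40, 0.31 and 0.48 (mean 0.32, adjusted p 0.259 in limma). The list had a median of 0.09. These genes serve lysosome-related organelles of many cells. Of the 4 genes of melanosome transport, such as Rab27a and Myo5a, 0 had an unadjusted p under 0.05 in limma.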

How the data were processed

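RNA of mouse middle ears was hybridised to 4 two-colour arrays that lay on the same slide and were scanned together, so there was no batch to test. Spot signals were read by the authors in Agilent Feature Extraction 10.10.1.1, and they deposited background-subtracted, dye-normalized intensities and the log10 ratio of Cy5 over Cy3, which is 0 where none was given. The deposited log10 ratios were converted to log2. Control spots, spots flagged as outliers (164 to 274 per array) and spots without a ratio (6179 to 8558 of 43020) were left out, and spots of a probe were averaged. Between 65.5% and 69.0% of probes were well above background in Cy5 and between 59.3% and 68.0% in Cy3. Ratios of different arrays correlated across probes with r between -0.216 (arrays 1 and 4) and 0.609 (arrays 1 and 2). The arrays' number limits the precision.

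A RefSeq table of assembly GRCm38.p6 gave symbols to 27655 of 39429 probes by accession, and the brightest probe stood for a gene. An intercept was fitted to each probe with at least 3 ratios in limma 3.58.1 (R 4.3.3; lmFit and eBayes, prior degrees of freedom 1.98), with two-sided p-values adjusted by Benjamini-Hochberg over all probes tested. Intervals are at the 95% level. Single values also had an exact sign-flip permutation test. P-values measure the spread between these arrays, as the labels call them biological replicates without naming animals. On simulated ratios for DEP against control with 200 of 29925 probes changed, 86 were called, 3 of them falsely, and 63 of 100 probes changed by 2 and 20 of 100 changed by 1 on the log2 scale were recovered. For levels across channels, mean log2 signals were quantile-normalized between arrays. Figures were drawn in Python 3.11.15.

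The text names all 10 pigment genes and other pigment genes with an unadjusted p under 0.05 in limma. Also named are the 3 genes nearest to each measured pigment gene by Pearson r over the 8 channels. So are the brightest or absent markers of other cell lists and the qRT-PCR genes of the study. Kit, Mc1r, Rab27a, Myo5a, Kcnj10, Atp1b2, Cldn11, Cdh19, C1qa and C1qb were added after their values were seen. The members, lists and tests were chosen with earlier results of these data known, and the cAMP response element was searched afterwards. The alternatives were normexp (offset 50, on median spot signals) with loess or median centring, the deposited table of log10 ratios, filters on dim probes, flagged spots kept, an intensity trend, no moderation, averaging all probes of a gene and leaving out each array. A comparison of the proteins was not run.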

Additional observations from a re-analysis of the deposited data

Results flagged for a closer look

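Among 25 groups of 4 values checked, 2 had a sample far from the others, where chance alone sets about 1 in 20 apart. The log2 Cy5 signal of Pmel was 6.94 on array 1 against 6.46 to 6.53 on the other arrays, and the gap made up 0.85 of the range. After the arrays were scaled to a common distribution the Cy5 level of Pmel was 94.5 on array 1, within its range of 93.5 to 106 over the arrays. The log2 ratio of Mlana was 0.75 on array 2 against -0.17 to -0.01 on the others, and the gap made up 0.83 of the range, just past the critical value for 4 values.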

How the results depend on the processing

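Of 106 values computed under the alternatives for the 8 pigment genes measured throughout, 53 left the gene's own ratio as it was apart from rounding (filters, variance models, flagged spots kept, the deposited table, and averaging for a gene with 1 probe). Of the other 53, 49 kept their direction and 4 reversed, and 1 of the 106 had an adjusted p under 0.05 in limma. Oca2 and Gpr143 are left out here, since most of their signals were not above background, and the sign of their measured ratios changed with the setting. With normexp and median centring, which moved the median of all genes from 0.03 to 0.12, the log2 ratio of Mitf was 0.77 with an adjusted p of 0.0335, while its adjusted p was 0.144 to 0.419 under the other alternatives. In that setting Dct reversed to 0.13 and Sox10 to 0.23. Slc45a2 was -0.20 with normexp and loess and -0.24 with normexp and median centring. In the same order Tyr was -0.10 and -0.08, and Mlana 0.01 and 0.13. Leaving out each array, the log2 ratio ranged from -0.27 to 0.082 for Sox10 (0.082 without array 1) and from -0.11 to 0.20 for Mlana (-0.11 without array 2). Dct was -0.58 without array 2 (adjusted p 0.440 in limma) and -0.023 without array 1, and Slc45a2 was -0.71 without array 2 (adjusted p 0.375) and -0.21 without array 1. Tyr ranged from -0.38 without array 2 to -0.096 without array 3 and was -0.58 with its probes averaged. Tyrp1 ranged from 0.18 without array 4 to 0.96 without array 1. The median over the 10 genes ranged from 0.02 to 0.19 over the arrays left out and was -0.02 with normexp and loess. The other probes of Mitf and Dct, an alternative chosen after seeing the data, kept the direction, and the other probe of Tyr was not read, as it was not above background.

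The count of genes at an adjusted p under 0.05 was 2988 with median centring and 0 under every other alternative named, leaving out any array included. Genes higher at an unadjusted p under 0.05 numbered 7256 with median centring, 1527 with both channels above background and 1452 (without array 2) to 2834 (without array 1) over the arrays left out. Genes lower numbered 1340 with 1 channel above background, 1313 with both and 1479 (without array 2) to 2650.0 (without array 4) over the arrays left out. The cause was not tested. The fit of the within-array ratios is itself paired by array, so no further fit with a replicate block was made. Signals near background limit Oca2, Gpr143 and the dimmer Tyr probe.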
